A study of Mus musculus with 6 samples.

Results

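Matricellular proteins are secreted into the extracellular matrix, where they act less as scaffolding than as signals that tune adhesion, growth factor activity and collagen assembly. The 10 genes described here were *Postn* and *Tgfbi* of the fasciclin family, the tenascins *Tnc* and *Tnxb*, the thrombospondins *Thbs1* and *Thbs2*, the SPARC family genes *Sparc* and *Sparcl1*, and the CCN genes *Ccn1* and *Ccn2*. They were found by symbol in a deposited table of 56748 genes, and all 10 had enough counts to be tested, out of 17146 tested genes. *Postn*, which encodes periostin, was chosen because it was already known to be among the strongest lower genes of the comparison, so it was chosen by its measured fold change and p-value in this same comparison and its difference is given as a description without a test. The other 9 are genes of the same families or of the same functional class, and were listed together with *Postn* when earlier results of these data were known.

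RNA was sequenced from 6 cultures labelled as osteocytes from long bones, 3 labelled WT and 3 labelled cKO. The methods give the WT mice as C57BL/6 or C57BL/6J and 7 weeks old where the isolation of the cells is described, and say of all experiments that age and sex were matched. The cKO mice were *Gsdmd* fl/fl; DMP1-Cre, in which a Cre recombinase driven by the dentin matrix protein promoter deletes gasdermin D, the pore-forming protein of pyroptosis. Every culture was grown for 7 days and then primed with 10 ng/mL lipopolysaccharide (LPS) for 3 h before a further 3 h with 20 µg/mL aluminum hydroxide. Both labels were thus compared in the stimulated state, and unstimulated cultures were not analysed here. The sources used here do not say whether the 3 cultures of a label came from separate mice, and p-values then measure the spread between these cultures only.

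Library totals lay between 39566835 and 49734046 counts. For *Gsdmd* itself the WT libraries held 609, 699 and 549 counts and the cKO-labelled libraries 885, 937 and 1045, which goes against the label. A count over the whole gene includes transcripts without the floxed exons and transcripts of cells that do not express the Cre. The part of either in these counts was not tested. The word labelled is therefore kept throughout, and directions depend on it. *Xist* had 0 to 4 counts in WT and 44817 to 51216 in the cKO-labelled libraries, and the Y-linked *Ddx3y* had 4033 to 5455 counts in WT and 0 in the others, which goes against matched sex, so that sex and genotype cannot be told apart. Of 6 osteocyte markers, 5 were too low to be tested: *Sost* was at 0 in every library, and *Mepe*, *Dmp1*, *Phex* and *Fgf23* reached at most 2, 6, 22 and 34 counts. The sixth, *Pdpn*, had a log2 fold change of -0.28. All 8 macrophage markers rose, from a summed level of 173 to 203 counts per 1000000 (CPM) in WT to 1464 to 1554 CPM in the cKO-labelled libraries. Of 5 markers of mural and smooth muscle cells, 4 fell, and their summed level went from 752 to 911 CPM down to 364 to 416 CPM. In bulk RNA, fewer cells of a type and less RNA per cell cannot be told apart.

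Periostin and TGFBI (transforming growth factor beta induced) are built from repeated fasciclin domains and bind integrins and collagen, and periostin is a hallmark of the periosteum, the periodontal ligament and healing connective tissue. Tenascins and thrombospondins are large oligomeric glycoproteins that appear at sites of tissue remodeling. SPARC, also called osteonectin, binds collagen and is abundant in bone, and the CCN proteins are matrix-bound signals whose genes respond quickly to mechanical load, TGF-β and the YAP and TEAD transcription factors.

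The proximal promoters of *Postn* and *Tgfbi* are shown because these paralogs moved in opposite directions, and those of *Tnc* and *Ccn1* because both fell. Each window runs from 250 bases before to 50 bases after a RefSeq transcript start, and where a gene had more than 1 window the one nearest its deposited start is printed. The sequences come from the RefSeq promoter table, built on GRCm38.p6, and each was placed on GRCm39, the build of the deposited table, by its single exact match. In that table, 7 of the 10 genes had an entry, and *Thbs1*, *Sparcl1* and *Ccn2* had none. Capitals mark any match, on either strand, to a motif of the TEAD factors, AP-1, the SMAD factors, the TATA box or the CArG box of the factor SRF.
Postn promoter, chr3:54268278-54268577, plus strand: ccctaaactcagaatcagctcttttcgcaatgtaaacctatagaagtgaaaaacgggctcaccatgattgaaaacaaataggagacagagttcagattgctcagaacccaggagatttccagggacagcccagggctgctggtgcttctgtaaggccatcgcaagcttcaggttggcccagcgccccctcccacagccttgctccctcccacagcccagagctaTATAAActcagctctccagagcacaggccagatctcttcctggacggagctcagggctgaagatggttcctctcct
Tgfbi promoter, chr13:56757149-56757448, plus strand: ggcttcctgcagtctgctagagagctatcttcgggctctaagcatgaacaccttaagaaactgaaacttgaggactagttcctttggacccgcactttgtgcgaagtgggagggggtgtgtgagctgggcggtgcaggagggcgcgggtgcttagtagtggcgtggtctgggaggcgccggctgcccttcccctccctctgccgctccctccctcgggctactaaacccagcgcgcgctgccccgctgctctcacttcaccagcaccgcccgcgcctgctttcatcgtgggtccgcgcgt
Tnc promoter, chr4:63965203-63965502, minus strand: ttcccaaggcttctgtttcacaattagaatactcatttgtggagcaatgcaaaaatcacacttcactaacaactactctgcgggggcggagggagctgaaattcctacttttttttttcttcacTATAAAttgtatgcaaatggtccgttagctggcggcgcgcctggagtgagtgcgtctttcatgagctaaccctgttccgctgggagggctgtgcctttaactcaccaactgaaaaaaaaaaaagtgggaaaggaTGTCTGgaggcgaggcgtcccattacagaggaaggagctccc
Ccn1 promoter, chr3:145355691-145355990, minus strand: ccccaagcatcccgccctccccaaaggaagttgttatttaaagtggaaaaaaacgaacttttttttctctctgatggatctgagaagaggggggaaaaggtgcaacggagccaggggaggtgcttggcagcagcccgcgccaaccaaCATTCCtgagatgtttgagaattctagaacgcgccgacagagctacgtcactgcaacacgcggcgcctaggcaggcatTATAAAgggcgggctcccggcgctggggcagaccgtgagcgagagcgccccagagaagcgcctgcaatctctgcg
The *Postn* window held a TATA box (TATAAA) beginning 26 bases before the transcript start and no other of these motifs. The *Tgfbi* window held none of the 5 motifs, which says only that these letters are not in this stretch. In *Ccn1* a TATA box began 25 bases before the start and a TEAD motif (GGAATG, here on the opposite strand) 103 bases before it. In *Tnc* a match to the TATA box letters lay 126 bases before the start and a SMAD motif (CAGACA, here on the opposite strand) 8 bases after it. Among 32851 windows of the same length in the table, 13.6% held the TATA box, 14.7% the TEAD motif and 21.0% the SMAD motif. The AP-1 motif (TGANTCA) was in 7.81% of them and the CArG box in 1.63%, and neither was in the 4 windows printed. No motif overlapped another in these windows, and a match is a description of the letters only.

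Across the 10 genes, *Postn* stood lowest and *Tgfbi* highest in fold change, and most others were moderately lower in the cKO-labelled libraries. Of the 9 genes other than *Postn*, 6 fell (*Tnc*, *Tnxb*, *Sparc*, *Ccn2*, *Ccn1* and *Thbs2*), 1 rose (*Tgfbi*) and 2 did not pass the test (*Thbs1* and *Sparcl1*). A gene passed when its p-value from the quasi-likelihood test of edgeR, adjusted over all tested genes by the Benjamini-Hochberg method, was below 0.05. Of all tested genes 19.2% fell and 20.1% rose. Among the 9443 genes with a mean of at least 10 CPM, which included all members but *Sparcl1*, 24.6% fell and 25.0% rose. With upper-quartile in place of TMM scaling, 39.5% of the genes that passed had risen, against 51.2%, and the directions of the 7 members that passed were the same. For 7 of the 9 the labels did not overlap, 6 lower and 1 higher in all cKO-labelled libraries, beside 49.2% of all tested genes, which were 23.9% lower and 25.3% higher. The median log2 fold change of the 9 was -0.48, beside 0.01 over all tested genes. A stricter call also asked for a log2 fold change of at least 1 in size. *Tgfbi* alone of the 9 met it, beside 6.56% of tested genes that met it upwards and 4.64% that met it downwards. The plot of every library shows how small the spread within a label was beside most of these differences.

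**Figure D1:**
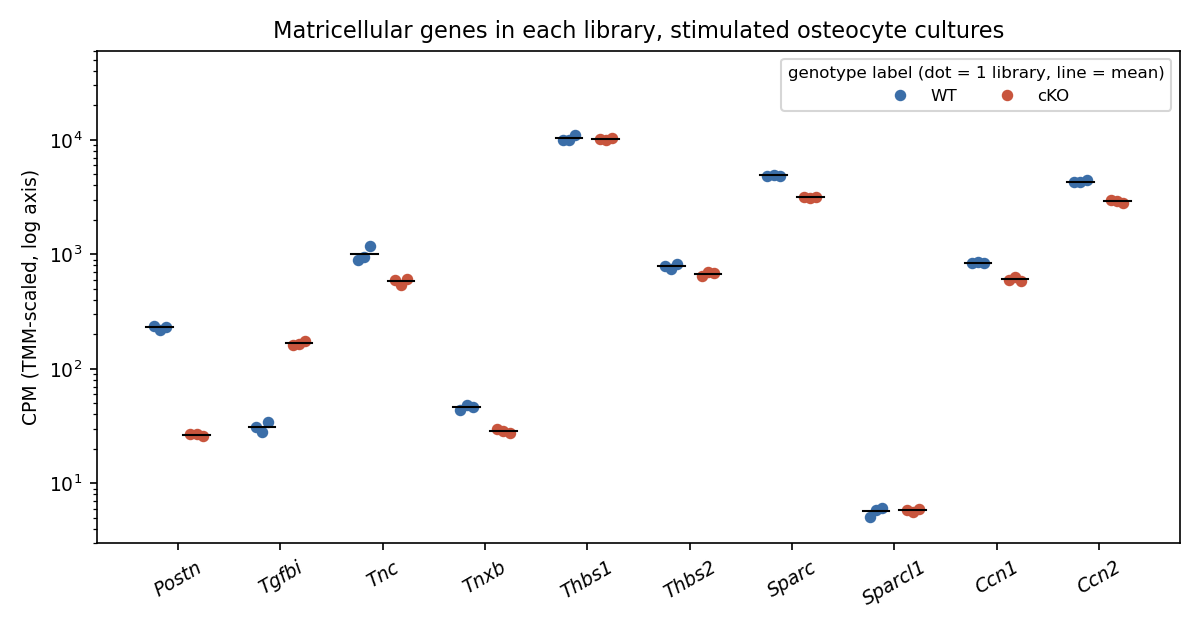
Level of the 10 matricellular genes in each of the 6 libraries, in TMM-scaled CPM on a log axis, with 1 dot per library, a line at the mean and colour for the genotype label. *Postn* and *Tgfbi* exchange places between the labels, while *Thbs1* and *Sparcl1* overlap.

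*Postn* (ENSMUSG00000027750) lies on chromosome 3 of GRCm39 from 54268530 to 54298458 on the plus strand. The WT libraries held 10717, 10929 and 9061 counts of it and the cKO-labelled libraries 1124, 1063 and 1176. All 3 WT libraries were far above all 3 others. In CPM the level went from 231 ± 9.27 in WT to 26.4 ± 0.481 in the cKO-labelled libraries (SD, n = 3 each), which is 8.72-fold lower, or -3.12 on the log2 scale. By p-value it ranked number 3 among all genes with a negative fold change, which is the value it was chosen for. *Postn* was still detected at 25.9 to 26.7 CPM in every cKO-labelled library. Gene counts do not separate the splice forms of periostin.

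*Tgfbi* (ENSMUSG00000035493), the closest relative of *Postn* in the list, lies on chromosome 13 from 56757336 to 56787375 on the plus strand. It had 1410, 1379 and 1326 counts in WT and 6754, 6497 and 7942 in the cKO-labelled libraries, with no overlap. Its level rose from 31.1 ± 3.19 to 166 ± 7.58 CPM (SD, n = 3 each), a log2 fold change of 2.42 (SE 0.0657, adjusted p = 6.07e-15). This was 5.36-fold, and *Tgfbi* was number 406 of the tested genes in order of log2 fold change. *Tgfbi* is also expressed by macrophages, whose 8 markers rose 5.54-fold to 19.1-fold between the same libraries. The part of these cells in the rise of *Tgfbi* was not tested.

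Within a library, the ratio of the 2 fasciclin genes turned over. Per kilobase of gene length, *Tgfbi* stood at 0.291 to 0.338 times the level of *Postn* in the WT libraries and at 13.9 to 15.6 times in the cKO-labelled libraries. The mean log2 ratio went from -1.69 to 3.86. This ratio contains *Postn* and is given without a test. A ratio within a library does not depend on the scaling between libraries, but it shows only that the paralogs changed unequally.

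**Figure D2:**
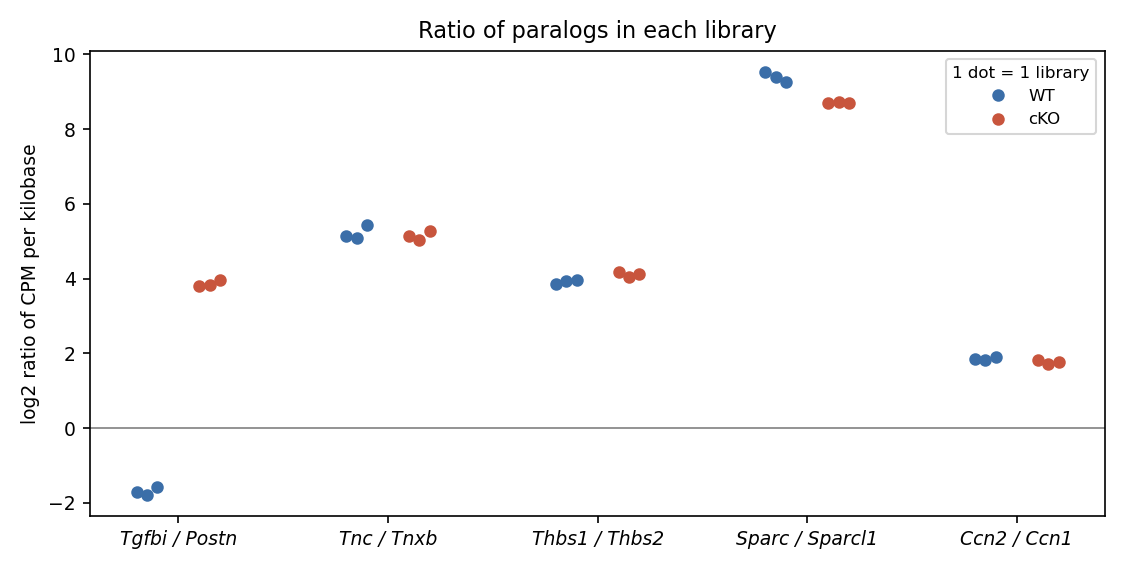
Log2 ratio of CPM per kilobase between the paralogs of each family, with 1 dot per library and colour for the genotype label. The *Tgfbi* to *Postn* ratio, which holds a gene chosen for its difference in this comparison, moves by 5.55 between the labels. The other 4 pairs move by 0.68 or less.

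*Tnc*, which encodes the hexameric tenascin-C of injured and inflamed tissue, lies on chromosome 4 from 63878022 to 63965252 on the minus strand. It had 40091, 46542 and 45590 counts in WT and 25174, 21579 and 27547 in the cKO-labelled libraries. In CPM the WT libraries held 891, 938 and 1175 and the others 598, 543 and 606, so the groups did not overlap although WT replicate 3 stood above the other WT libraries. *Tnc* fell, with a log2 fold change of -0.78 (SE 0.0738, adjusted p = 1.25e-07). Its coefficient of variation in WT, 15.2%, was the highest of the 10 genes in that label. Without WT replicate 3 the log2 fold change was -0.65, and *Tnc* still passed.

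*Tnxb*, the tenascin of loose connective tissue that associates with collagen fibrils, lies on chromosome 17 from 34879431 to 34938789 on the plus strand. It had 1975, 2377 and 1818 counts in WT and 1247, 1146 and 1241 in the cKO-labelled libraries. Its level fell from 46.2 ± 2.08 to 28.6 ± 1.17 CPM (SD, n = 3 each), a log2 fold change of -0.69 (SE 0.0624, adjusted p = 6.6e-08). Both tenascins were thus lower in every cKO-labelled library than in any WT library. Per kilobase, *Tnc* stood at 34.0 to 43.5 times *Tnxb* in WT and at 32.7 to 38.5 times in the cKO-labelled libraries. That ratio did not separate the labels (exact permutation test over libraries, two-sided, p = 0.6).

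*Thbs1*, a trimeric protein that can activate latent TGF-β, lies on chromosome 2 from 117942357 to 117957614 on the plus strand and was the most abundant of the 10 genes. It had 446024, 492964 and 431626 counts in WT and 430552, 399274 and 469556 in the cKO-labelled libraries. The CPM values overlapped, with 9909, 9934 and 11120 in WT against 10232, 10041 and 10337. The log2 fold change was -0.02, with a 95% interval from -0.09 to 0.06 (adjusted p = 0.768), which in percent of the WT level is from -6.3% to 4.3%. *Thbs2*, its paralog and an inhibitor of angiogenesis, lies on chromosome 17 from 14885762 to 14914497 on the minus strand. It had 35455, 37035 and 32157 counts in WT and 27308, 27881 and 31009 in the cKO-labelled libraries. In CPM the WT libraries held 788, 746 and 828 and the others 649, 701 and 683, which did not overlap. *Thbs2* fell slightly, by 14.0%, with a log2 fold change of -0.22 (SE 0.0423, adjusted p = 0.000468). The ratio of *Thbs1* to *Thbs2* per kilobase was 14.5 to 15.5 in WT and 16.5 to 18.2 in the cKO-labelled libraries. With 3 libraries against 3 the exact permutation test cannot go below 0.1, and it gave 0.1 for this pair, or 0.133 when adjusted over the 4 pairs tested.

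*Sparc* lies on chromosome 11 from 55285326 to 55314009 on the minus strand. It had 218727, 246673 and 187261 counts in WT and 132165, 123594 and 144935 in the cKO-labelled libraries. Its level fell from 4885 ± 76.4 to 3146 ± 41.5 CPM (SD, n = 3 each), a log2 fold change of -0.63 (SE 0.028, adjusted p = 3.97e-12). The replicates lay within a coefficient of variation of 1.56% in WT and 1.32% in the cKO-labelled libraries, so this 35.6% decrease was many times the spread between cultures. *Sparcl1*, also called hevin, lies on chromosome 5 from 104226977 to 104261599 on the minus strand and was the least abundant member. It had 230, 288 and 237 counts in WT and 246, 225 and 273 in the cKO-labelled libraries, values that overlapped. Its log2 fold change was 0.04 with a 95% interval from -0.26 to 0.34 (adjusted p = 0.847). In percent of the WT level that interval runs from -16.4% to 26.8%, which is wide because the counts are few. *Sparc* stood at 613 to 737 times *Sparcl1* per kilobase in WT and at 412 to 426 times in the cKO-labelled libraries (exact permutation test, p = 0.1, adjusted p = 0.133).

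*Ccn1*, formerly Cyr61, lies on chromosome 3 from 145352731 to 145355736 on the minus strand, and *Ccn2*, formerly connective tissue growth factor, on chromosome 10 from 24471340 to 24474581 on the plus strand. *Ccn1* had 38175, 42178 and 32421 counts in WT and 25096, 25227 and 26783 in the cKO-labelled libraries. *Ccn2* had 193376, 210822 and 171762 counts in WT and 125140, 115916 and 128379 in the cKO-labelled libraries. For neither gene did the labels overlap in CPM. *Ccn1* fell from 844 ± 8.0 to 607 ± 24.1 CPM, a log2 fold change of -0.48 (SE 0.0368, adjusted p = 8.28e-09). *Ccn2* fell from 4323 ± 91.4 to 2905 ± 74.4 CPM (SD, n = 3 each), a log2 fold change of -0.57 (SE 0.0303, adjusted p = 4.73e-11). The decreases, 28.1% and 32.8%, were of similar size, and the ratio of *Ccn2* to *Ccn1* per kilobase went from 3.53 to 3.74 in WT to 3.24 to 3.52 in the cKO-labelled libraries (exact permutation test, p = 0.1, adjusted p = 0.133).

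Some member counts share their locus with a gene on the opposite strand, and the strand setting of the counting is not given in the sources used here, so such reads cannot be told apart. In GENCODE M39, exons of *Gm15270* overlap *Ccn2*, those of *Gm17501* overlap *Ccn1*, those of *Gm29233* overlap *Thbs1* and those of *8030451A03Rik* overlap *Tnc*. These 4 antisense genes held far fewer counts than the members. *Gm15270* had 3467 to 6104 counts per library, *Gm29233* had 1322 to 2978, *Gm17501* had 338 to 546 and *8030451A03Rik* had 79 to 192. A second one at *Thbs1*, *Gm13986*, had 32 to 73, and *Gm26703* at *Sparcl1* and *Cyp21a2-ps* at *Tnxb* had at most 9 and 6. Exons of *Gm31095* overlap *Postn*, and those of *Gm64738* and *Gm66586* overlap *Tnxb*. These genes are in the annotation used here but were not matched in the counts. How reads lying on both genes of a pair were assigned is not known here. The counts of the antisense genes therefore do not bound the reads shared with any member.

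**Figure D3:**
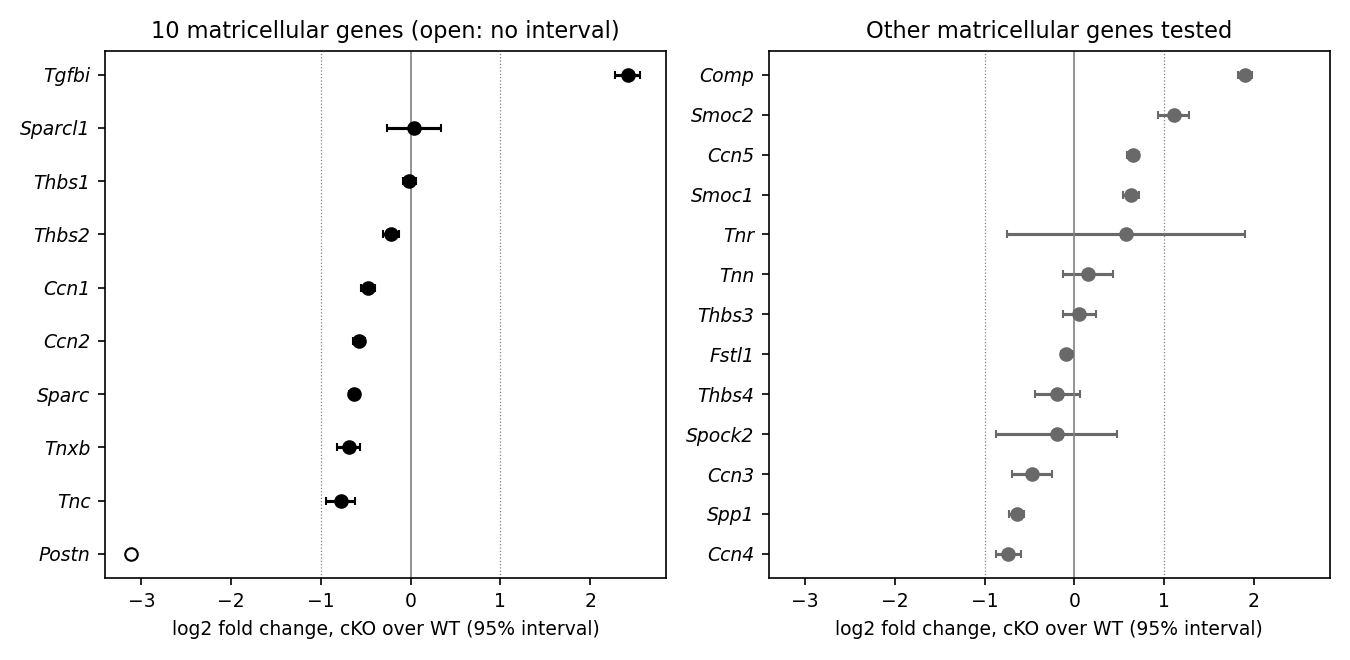
Log2 fold change of the cKO-labelled libraries over WT for the 10 genes (left) and for 13 other matricellular genes tested (right), with 95% intervals from edgeR and dotted lines at a log2 fold change of 1 in either direction. *Postn*, chosen for its value, is an open circle without an interval. *Tgfbi* on the left and *Comp* and *Smoc2* on the right lie beyond the upper line.

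Compared per kilobase of the deposited gene length, the genes spanned levels from about 1.93 to 1699 CPM per kilobase in WT. The order in WT was *Thbs1*, *Ccn2*, *Sparc*, *Ccn1*, *Tnc*, *Thbs2*, *Postn*, *Tgfbi*, *Tnxb* and *Sparcl1*, and of the neighbours in that order only *Tnc* and *Thbs2* overlapped. In the cKO-labelled libraries *Thbs2* stood above *Tnc* and *Tgfbi* above *Postn*, and *Tnxb* and *Sparcl1* overlapped. The other positions were the same. *Postn* went from rank 1634 of the tested genes per kilobase to rank 9103, and *Tgfbi* from rank 5067 to rank 923, whereas *Thbs1* was at rank 9 and then 11. The 10 genes together took 2.19% to 2.31% of all counts in the WT libraries and 1.83% to 1.86% in the cKO-labelled libraries. *Thbs1* made up 45.2% to 47.3% of that sum in WT and 55.3% to 56.0% in the others. WT replicate 3 held the highest WT level of *Tnc*, *Thbs1*, *Thbs2*, *Ccn2*, *Tgfbi* and *Sparcl1* in CPM, but not of *Postn*, *Tnxb*, *Sparc* or *Ccn1*.

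The wider family moved in both directions. Of 16 further matricellular genes, 13 were tested, of which 4 rose, 4 fell and 5 did not pass. Among all tested genes 20.1% rose and 19.2% fell. The median log2 fold change of the 13 was 0.05. *Comp*, the cartilage and tendon thrombospondin also known as cartilage oligomeric matrix protein, rose from 567 ± 26.4 to 2117 ± 75.2 CPM (SD, n = 3 each), a log2 fold change of 1.90 (adjusted p = 2.43e-16). Of 5 chondrocyte markers, 3 rose and 2 fell between the same libraries. *Acan* went from 2 to 8 counts per library in WT to 782 to 922 in the cKO-labelled libraries and *Matn1* from at most 2 counts to 20 to 27, and *Sox9* rose with a log2 fold change of 0.24, while *Col2a1* and *Col10a1* fell with -0.84 and -0.58. The summed level of the 5 was 1413 to 1576 CPM in WT, mostly *Col2a1*, and 845 to 939 CPM in the cKO-labelled libraries, and the part of such cells in the rise of *Comp* was not tested. The relatives of *Comp*, *Thbs3* and *Thbs4* did not pass, with log2 fold changes of 0.05 and -0.19. The SPARC-related genes *Smoc1* and *Smoc2*, which encode calcium-binding matrix modulators, rose, with log2 fold changes of 0.63 and 1.11, unlike *Sparc* itself. Among the CCN genes, *Ccn5* rose with a log2 fold change of 0.65, while *Ccn3* and *Ccn4* fell with -0.47 and -0.74. *Spp1*, which encodes the bone phosphoprotein osteopontin, fell from 8495 ± 646 to 5442 ± 32.5 CPM (log2 fold change -0.64). *Fstl1* fell by 0.09 on the log2 scale, and its adjusted p-value was 0.03. *Ccn6*, *Spock1* and *Spock3* reached at most 14, 2 and 19 counts and were not tested.

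The receptors of these proteins split. Of 17 tested, 7 rose and 6 fell, beside 20.1% and 19.2% of all tested genes. The integrin chains *Itgb1* and *Itgb5*, partners in receptors for periostin and the CCN proteins, fell with log2 fold changes of -0.40 and -0.32. *Itga5*, the fibronectin receptor chain, fell from 455 ± 39.3 to 226 ± 4.6 CPM, a log2 fold change of -1.01. It and *Ptprz1*, with a log2 fold change of -2.24 at under 2 CPM, were the 2 genes called lower. *Itga5* was under the limit, at -0.95, without WT replicate 3, and *Ptprz1*, with at most 62 counts in a library, did not pass without that library (adjusted p = 0.064) or under DESeq2 (0.159). The 4 genes called higher were *Stab1*, *Itgam*, *Cd36* and *Itga8*. *Stab1*, a scavenger receptor that takes up SPARC, rose 9.91-fold, *Itgam*, the macrophage integrin chain, 7.03-fold and *Cd36*, which binds thrombospondins, 5.85-fold (SD over 3 libraries of 10.4, 4.97 and 11.2 CPM around means of 148, 70.6 and 419 CPM in the cKO-labelled libraries). *Stab1*, *Itgam* and *Cd36* are also genes of macrophages, whose markers rose between the same libraries, and the part of these cells in their rise was not tested. *Itga8*, at 2.54 CPM in WT, had a log2 fold change of 1.00 and was called in 9 of 16 alternative fits. *Itga5*, *Ptprz1* and *Itga8* were named after their values were seen. *Lrp1*, which clears thrombospondins, did not pass (log2 fold change -0.03, 95% interval -0.11 to 0.05).

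The structural partners were mostly lower, like the members. Of 12 genes for collagens, fibronectin and their processing enzymes, 9 fell and 1 rose, with a median log2 fold change of -0.43. Over all tested genes 19.2% fell and 20.1% rose, and over those with a mean of at least 10 CPM 24.6% and 25.0%. Periostin is known to bring together *Bmp1*, the protease that activates lysyl oxidase, with fibronectin and collagen. *Bmp1* fell from 341 ± 23.2 to 161 ± 4.28 CPM, a difference of -1.08 on the log2 scale (adjusted p = 4.86e-12), and was the only one of the 12 called lower under the limit on the fold change. *Fn1*, the fibronectin gene, fell from 44856 ± 1657 to 27150 ± 815 CPM, a log2 fold change of -0.72. *Lox*, for lysyl oxidase, fell with a log2 fold change of -0.43. *Col3a1* rose by 0.13 on the log2 scale, and *Col12a1*, whose product binds tenascins, did not pass (0.01, 95% interval -0.05 to 0.07).

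Genes of the pathways known to act on the members were not uniform. Of 18 TGF-β signalling genes 8 rose and 6 fell, none by as much as 1 on the log2 scale. The median log2 fold change was 0.07. *Ltbp1* and *Ltbp2*, which hold latent TGF-β in the matrix, rose with log2 fold changes of 0.37 and 0.30, and the co-receptor gene *Tgfbr3* rose with 0.28. Among the 6 that fell were *Smad7*, *Pmepa1* and *Tgfb3*, with log2 fold changes of -0.53, -0.44 and -0.38. These were named after their values were seen. Of 20 genes for YAP, TEAD and SRF and their targets, 13 fell and 1 rose, with a median of -0.32. *F3* and *Ankrd1*, called lower in this list, had log2 fold changes of -1.04 and -1.03 (-0.88 for *Ankrd1* without WT replicate 3), *Axl* had -0.82 and *Crim1* -0.69. *Amotl2* was the one that rose, with 0.19, and *Ptpn14* did not pass (-0.05). Beside these lists, 19.2% of all tested genes fell and 20.1% rose. No set was tested against the rest of the genes.

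**Figure D4:**
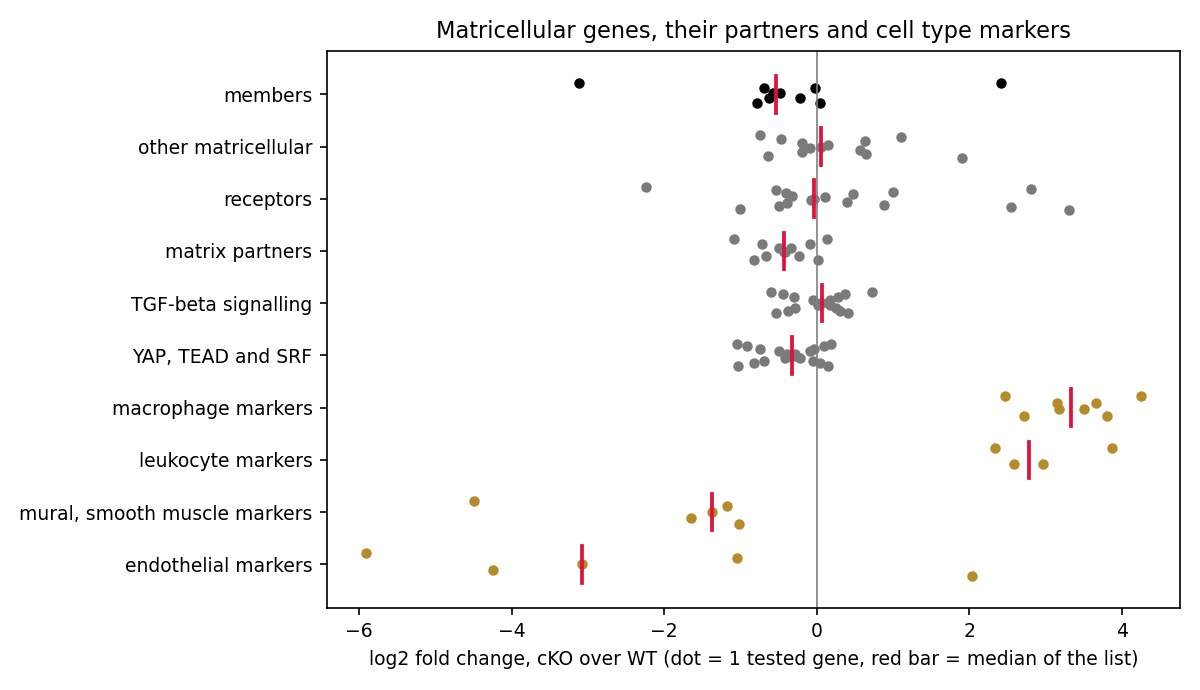
Log2 fold change of the cKO-labelled libraries over WT for each tested gene (dots) of the 10 members, 5 related lists and 4 lists of cell type markers, with a red bar at the median of each list. The medians are -0.53 for the members including *Postn*, -0.43 for the matrix partners, 3.33 for the macrophage markers and -1.37 for the mural and smooth muscle markers. The other marker lists are not drawn. Their medians ran from -1.67 (skeletal muscle, 1 gene tested) to 0.62 (marrow stroma), with -0.13 for fibroblasts and periosteum.

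The markers of blood-derived cells and of mural cells moved more than most members, and those of other cells were mixed. The 4 leukocyte markers rose, with summed levels of 69.5 to 73.5 CPM in WT and 410 to 421 CPM in the cKO-labelled libraries. Among the mural and smooth muscle markers, which went the same way as *Postn*, *Myh11* had a log2 fold change of -4.49 and *Acta2* of -1.02. Of 5 endothelial markers 4 fell and 1 rose, all at a few CPM or less, with a summed level of 6.41 to 6.84 CPM in WT and 6.32 to 6.71 CPM in the cKO-labelled libraries. Markers of fibroblasts and periosteum, where *Postn* is typically expressed, had a summed level of 648 to 668 CPM in WT. In the cKO-labelled libraries the sum was 792 to 816 CPM. Most of it was *Pdgfra*, with means of 499 CPM in WT and 680 CPM in the cKO-labelled libraries. Of the 6 markers, 2 rose, 3 fell and 1 did not pass. In that list *Pdgfra* rose with a log2 fold change of 0.45, *Ly6a* fell with -0.46, *Dpp4* fell with -2.28 and *Clec3b* rose with 5.33, the last with a mean of under 0.1 CPM in WT. Of the 3 tendon markers, *Scx* fell, with a log2 fold change of -0.26, and *Mkx* and *Tnmd* did not pass, with -0.29 and 0.34. The part of such cells in the values of *Postn* and the other members was not tested.

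The genes whose profile over the 6 libraries was most like that of *Postn* were sought among 9443 genes with a mean of at least 10 CPM, by the root-mean-square difference in log2(CPM + 0.5) centred on the WT mean. The 5 closest were *Cacna1h*, *Adgrd1*, *Heph*, *Aoc3* and *Ndnf*, with differences of 0.141 to 0.279. *Cacna1h*, a T-type calcium channel gene, went from 44.5 to 5.13 CPM, and *Adgrd1*, for an adhesion receptor, from 36.7 to 3.53 CPM. *Heph*, a copper-dependent ferroxidase gene, went from 23.4 to 2.74 CPM. These 5 are described by likeness alone, since the profile of *Postn* is mostly the difference between the labels.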

How the data were processed

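RNA from 6 cultures was sequenced as 150 bp paired-end reads, which the authors trimmed, aligned to GRCm39 with HISAT2 2.0.5 and counted per gene with featureCounts. The authors deposited raw counts, not normalized, and a gene length in bases. The labels and the methods name different featureCounts versions, and the methods also name RSEM. The deposited table holds 1 column per library, matched by library name.

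Differences were computed from the counts with edgeR 4.0.16 in R 4.3.3 (filterByExpr, TMM, glmQLFit, glmQLFTest, genotype as the only term) and adjusted by the Benjamini-Hochberg method over 17146 tested genes. CPM use the TMM-scaled library size. CPM per kilobase divide by the deposited length. Library totals of 39566835 to 49734046 counts set the precision, and without molecular identifiers the reads of a gene are not independent molecules. The script was tested on simulated data.

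The members and lists were chosen with earlier results of these data known. Named were the members, *Gsdmd*, the 4 most abundant genes of each list and up to 3 called genes with the largest fold change, and any tested gene of the wider family. Lists for osteoblasts, marrow stroma and skeletal muscle were computed as well. Of 4 osteoblast markers tested 2 rose and 2 fell, with a summed level of 75.9 to 82.0 CPM in WT and 94.7 to 98.5 CPM in the cKO-labelled libraries. Of 3 marrow stroma markers tested *Cxcl12* rose and *Kitl* fell, with log2 fold changes of 1.66 and -1.82, and *Lepr* did not pass (0.62), with a sum of 395 to 457 and 1074 to 1096 CPM. The 1 skeletal muscle marker tested, *Acta1*, fell, with a sum of 5.73 to 7.03 and 1.65 to 2.44 CPM. Alternatives were DESeq2 1.42.0, limma-voom (limma 3.58.1), other scalings, filters and limits, counts halved, robust estimation, a replicate block and each library left out. Exact permutation tests used scipy 1.17.1. Proteins were not analysed here. One gene that the rule would name is not reported here.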

Additional observations from a re-analysis of the deposited data

How the results depend on the processing

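The direction of the 7 members that passed and their side of the threshold were the same under all 16 refits, which were DESeq2, limma-voom, 3 other scalings, 2 other filters, robust estimation, counts halved, the replicate block and each library left out. Over these, *Tgfbi* ranged from 2.34 to 2.49, *Tnc* from -0.87 to -0.65, *Tnxb* from -0.76 to -0.66, *Sparc* from -0.70 to -0.61, *Ccn2* from -0.64 to -0.55, *Ccn1* from -0.55 to -0.46 and *Thbs2* from -0.29 to -0.18 (log2 fold change). The log2 fold change of *Postn*, which was chosen for it and not tested, was -3.19 to -3.10. *Thbs1* and *Sparcl1* passed under none, with adjusted p-values of 0.0549 to 0.933 and 0.689 to 0.939. *Tgfbi* was the 1 tested member called in every refit.

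Without the limit on the fold change, 6 of the 9 members other than *Postn* were lower and 1 was higher. Over all tested genes 3445 were then higher and 3285 lower, against 1124 and 796 with the limit. Likewise 4 and 4 other matricellular genes, 7 and 6 receptors, 1 and 9 matrix partners, 8 and 6 TGF-β genes and 1 and 13 YAP, TEAD and SRF genes were then higher and lower. With at least 10 counts in every library, 522 genes were called lower, since fewer genes were tested. With no filter beyond 1 count, 1 other matricellular gene was called lower. Of the receptors, 2 were called lower, and 1 was under DESeq2, with scaling by library size only and with at least 10 counts in every library. With each library left out, 0 to 2 receptors (0 without WT replicate 3, 1 without cKO replicate 3) and 1 to 2 YAP, TEAD and SRF genes (1 without either of these libraries) were called lower. With upper-quartile scaling 39.5% of the genes that passed were higher, against 51.2%, and the median log2 fold change was -0.061.

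Replicate numbers are shared by the labels, but same-numbered libraries did not deviate together (correlations of -0.0245 to -0.00823). Such correlations cannot show whether same-numbered cultures were prepared together, so pairing was not settled. With the replicate block, 1087 genes were called higher and 772 lower, and of the tested members again only *Tgfbi*. Low counts limit *Sparcl1* most.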

Other observations

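The profile of *Ccn2* over the 6 libraries was followed most closely by *Fgfr1*, *Ccdc137*, *Farp1*, *Gramd4* and *Dnaaf9*, with root-mean-square differences of 0.0224 to 0.0328 in log2(CPM + 0.5), smaller than the 0.141 between *Postn* and its nearest gene. *Fgfr1*, a receptor for fibroblast growth factors, went from 330.0 to 220.0 CPM, a log2 fold change of -0.59, and *Farp1* from 179 to 121 CPM. These 5 genes were picked for their likeness, and no test is given.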
